A study of Mus musculus with 28 samples.

Results

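The proteasome genes of C2C12 cells were followed through muscle differentiation. They were taken as the protein-coding rows of the count table whose symbol starts with Psm, a letter from a to g and a number, and whose counts summed to at least 200 over 18 libraries. Of 50 such symbols, 46 met this minimum and make up the set, out of 15303 genes tested. One of them, Psmc3ip, matches by its symbol alone: it encodes a cofactor of meiotic recombination and is no part of the proteasome, which leaves 45. C2C12 is an immortalised wild-type mouse myoblast line. Cells were kept in growth medium with 20% fetal bovine serum (GM) and, at 90% confluence, were moved to differentiation medium with 3% horse serum (DM). RNA was sequenced in 3 libraries in each of 6 groups, namely GM and 12, 24, 48, 60 and 96 h in DM. Open chromatin was mapped by ATAC-seq in 2 libraries in GM and 2 at 60 h. As a model of muscle the groups are limited to 1 cell line grown without other tissue. The labels name the replicates biological and say nothing of separate cultures, so the tests speak for the variation among these libraries alone, and it could be technical.

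The 26S proteasome destroys proteins that carry ubiquitin chains. Its barrel-shaped core holds rings of alpha subunits, which form the gate, around rings of beta subunits, of which Psmb5, Psmb6 and Psmb7 cut the substrate. A regulatory particle sits on the end of the barrel: its base holds the Psmc ATPases that unfold substrates and its lid holds the deubiquitinase Psmd14. Immune cells and cells exposed to interferon put Psmb8, Psmb9 and Psmb10 in place of the constitutive cutting subunits, which changes the peptides made for antigen presentation. Other activators, PA28 (Psme1, Psme2 and Psme3) and PA200 (Psme4), can take the place of the regulatory particle, and in muscle the proteasome removes myofibrillar and regulatory proteins.

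Peaks of open chromatin stood over the start sites of nearly all these genes in GM and at 60 h. Promoters are shown for Psmb5 and Psmb6, cutting subunits that fell, for Psme4, an activator that rose, and for Psmb8 and Psmb9, immune subunits with few reads. Each is the 150 bases before the RefSeq start site (GRCm38.p6), written 5′ to 3′ on the strand of the gene.
Psmb5 (chr14:54617996-54618145, minus strand): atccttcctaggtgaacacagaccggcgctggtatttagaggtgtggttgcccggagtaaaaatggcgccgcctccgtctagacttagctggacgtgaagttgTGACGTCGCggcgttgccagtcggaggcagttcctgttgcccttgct
Psmb6 (chr11:70525207-70525356, plus strand): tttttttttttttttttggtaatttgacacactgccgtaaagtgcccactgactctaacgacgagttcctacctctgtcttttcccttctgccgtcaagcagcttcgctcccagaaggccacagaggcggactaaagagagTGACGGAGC
Psme4 (chr11:30771625-30771774, plus strand): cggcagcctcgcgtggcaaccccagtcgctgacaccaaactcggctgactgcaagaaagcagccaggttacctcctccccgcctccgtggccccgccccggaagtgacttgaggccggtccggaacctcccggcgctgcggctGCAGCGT
Psmb8 (chr17:34198045-34198194, plus strand): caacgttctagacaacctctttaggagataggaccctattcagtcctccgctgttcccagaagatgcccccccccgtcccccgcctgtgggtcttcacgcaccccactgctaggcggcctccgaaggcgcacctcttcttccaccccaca
Psmb9 (chr17:34187331-34187480, minus strand): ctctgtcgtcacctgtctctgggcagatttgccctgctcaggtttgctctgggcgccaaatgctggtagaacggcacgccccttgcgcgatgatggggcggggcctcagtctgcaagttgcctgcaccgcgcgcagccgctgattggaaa
Capitals mark the core of the antioxidant response element, TGACNNNGC on either strand, the kind of sequence bound by Nfe2l1 with a small Maf partner. In Psmb5 the match lay 47 to 39 bases before the start, in Psmb6 9 to 1 bases before it, and the RefSeq span of Psmb6 begins within the stretch shown, ahead of the start used here. In Psme4 the match began 7 bases before the start and ran on past it, so that 7 of its letters are shown. Neither this motif nor GAAANNGAA, the core of the interferon-stimulated response element, was in the 150 bases shown for Psmb8 and Psmb9. The start of Psmb9 lay 226 bases from that of Tap1, a peptide transporter gene on the opposite strand.

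Promoter sequences matched 39 of the 46 genes, with 42 promoters in all, because some genes have more than 1 start. In the 300 bases from 250 before to 50 after the start, TGACNNNGC was in 14.3% of these promoters and in 12.4% of 32851 mouse promoters. Psmb5, Psmb6, Psmc6, Psmd9, Psmd12 and Psme4 held it. GAAANNGAA was in 16.7% against 8.56%, in Psmb3, Psmb4, Psmc2, Psmd4, Psmd9, Psme1 and Psmg4. The GC box GGGCGG was in 54.8% against 35.7%, the CCAAT box CCAAT in 31.0% against 37.4%, and CAGCTG, an E box of the MyoD type, in 7.14% against 16.3%. Both strands were searched, the motifs could overlap, and a match is a description of the letters only.

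Levels are CPM, counts brought to a common library size with the trimmed mean of M values (TMM), and log2 fold changes are given ± standard error from 1 edgeR quasi-likelihood fit over all 18 libraries. A gene was called higher or lower at a Benjamini-Hochberg adjusted p under 0.05 over all 15303 genes, and values after ± beside a CPM are SDs over 3 libraries. Depth was 24.2 to 36.4 M counts per library (M for mega), of which the 46 genes held 0.437 to 0.511%. The genes Rn7s1 and Rn7s2 together held 17.3 to 24.3% of counts, with 19.2 to 20.2% at 48 h and 23.1 to 24.3% at 60 h. The share of the 46 genes was 0.437 to 0.442% at 48 h and 0.442 to 0.451% at 60 h. How far this bears on results that depend on scaling was not tested. The summed level of 9 muscle markers was 690 to 721 CPM in GM, 557 to 623 CPM at 12 h and 5890 to 6490 CPM at 96 h. Among them Myf5 went the other way, from a mean of 74.0 CPM in GM to 32.5 CPM at 96 h. Of 8 immune cell markers 4 had no count in any library, and their sum was 0.703 to 2.35 CPM. Replicate 3 of 24 h stood somewhat apart over these genes: it lay at a median of 0.095 (log2) below the other 24 h libraries, and Psmg3 was 0.48 below. The counts of all members called at 24 h against GM are therefore also given without it, and those of single classes are not. In RNA from a whole culture, fewer cells of a type and less RNA per cell cannot be told apart.

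Most proteasome transcripts were lower at 24 and 48 h than in GM, and fewer were by 96 h. By the F test 44 of 46 differed at some time, close to the 86% of all genes that did. The median ratio of the highest to the lowest group mean was 1.33 for the 46 genes and 1.71 for all genes tested. Of the 45 proteasome genes 8 ranged at least 1.5-fold, where 9916 of all 15303 genes did. Psmg4, a core chaperone, ranged most of the 45, 2.09-fold. With TMM scaling the group mean was lowest at 48 h for 23 of 46 genes and highest in GM for 16. The share of all genes with these extremes was not counted, and such orders of means depend on scaling.

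At 12 h the set had barely moved: 2 members were higher and 6 lower than in GM, where 17.8% of all genes were called higher and 17.2% lower. These 2 counts depended on the scaling and on single libraries: total-count scaling gave 5 and 5, RLE scaling 4 and 5, and leaving out 1 library gave 1 to 9 higher (9 without replicate 3 of 24 h) and 2 to 6 lower (2 without replicate 2 of GM). At 24 h 28 members were lower and 6 higher, against 30.6% and 30.2% of all genes, and without replicate 3 of 24 h 26 were lower and 9 higher. At 48 h 30 were lower and 7 higher, against 32.8% and 32.5%. Thus 60.9% of the members were lower at 24 h, and the median log2 fold change was -0.22 where that of all genes was 0.01. At 60 h 22 were lower and 11 higher (background 32.2% and 33.1%), and at 96 h 14 were lower and 10 higher (34.1% and 34.8%), which is near the background in the lower direction and below it in the higher. With total-count scaling these became 29 lower and 7 higher at 60 h and 23 lower and 6 higher at 96 h, and with upper-quartile scaling 18 lower and 7 higher at 96 h.

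With TMM scaling, the steps between times had most falls between 12 and 24 h and most rises between 48 and 60 h. From 12 to 24 h 29 members fell and 5 rose, against 26.5% and 27.8% of all genes. From 24 to 48 h 5 fell and 5 rose, against 14.8% and 17.5%, and total-count scaling gave 11 and 2, upper-quartile scaling 8 and 4. From 48 to 60 h 25 rose and 3 fell, against 15.8% and 11.3% of all genes. That count rested on scaling and on single libraries. Total-count scaling, which shifted the median of all genes by -0.10 (log2), left 10 higher and 5 lower, and upper-quartile scaling left 18 higher. Leaving out any 1 library left 11 to 22 higher, with 11 without replicate 1 of 48 h. From 60 to 96 h 15 rose and 8 fell, against 22.6% and 24.6%, and total-count scaling gave 18 and 8. With TMM scaling the time of the return also differed by class. Of the 14 core genes 12 rose and 0 fell from 48 to 60 h, against 15.8% and 11.3% of all genes. From 60 to 96 h 3 of the 14 rose and 2 fell, against 22.6% and 24.6%. With total-count scaling 5 of the 14 rose and 1 fell from 48 to 60 h, and 4 rose and 2 fell from 60 to 96 h. Of the 17 regulatory particle genes 8 rose and 1 fell from 48 to 60 h, and 11 rose and 0 fell from 60 to 96 h, against the same shares of all genes. With total-count scaling 2 of these 17 rose and 2 fell in the first of these steps, and 13 rose and 0 fell in the second.

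**Figure D1:**
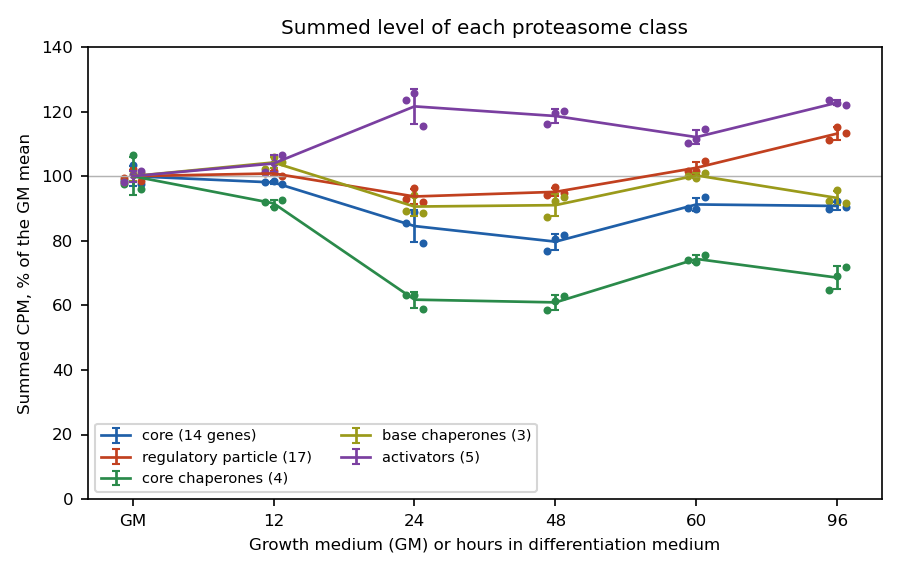
Summed CPM of the genes of each class as a percentage of its mean in growth medium (y axis), in growth medium and after 12 to 96 h in differentiation medium (x axis, evenly spaced groups). Points are libraries and bars are mean ± SD (n = 3); core chaperones were at 61.8% at 24 h and 68.6% at 96 h, and the activators averaged 112 to 123% from 24 h on, and 95 to 109% without Psme4.

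The classes did not move together. The 14 core genes were summed to 84.5 ± 4.9% of their GM level at 24 h, 79.7 ± 2.5% at 48 h, 91.2 ± 2.1% at 60 h and 90.8 ± 1.3% at 96 h. The 17 genes of the regulatory particle were at 93.7 ± 2.2% at 24 h and 95.1 ± 1.3% at 48 h, and at 113 ± 2.0% at 96 h. The 4 core chaperones stood lowest, at 61.8 ± 2.5% at 24 h and 68.6 ± 3.5% at 96 h. Activators were at 122 ± 5.4% at 24 h and 123 ± 0.89% at 96 h, but that sum rested on Psme4: the other 4 were at 109 ± 8.7% and 95 ± 1.6%, and at 96 h 1 of the 5 was higher and 1 lower, with a median of -0.07. Within a library, the summed regulatory particle over the summed core was 1.38 to 1.41 in GM and 1.73 to 1.76 at 96 h. Its size reflects gene lengths, but its change between groups does not depend on scaling, and GM and 96 h did not overlap. The rise was not steady: the ratio was 1.52 to 1.63 at 24 h, 1.62 to 1.71 at 48 h and 1.56 to 1.58 at 60 h. Without Psmc3, which rose most, it was 1.20 to 1.23 in GM and 1.43 to 1.44 at 96 h, and 48 h, at 1.35 to 1.44, overlapped 96 h. No p is given for such sums, because they run over chosen members.

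**Figure D2:**
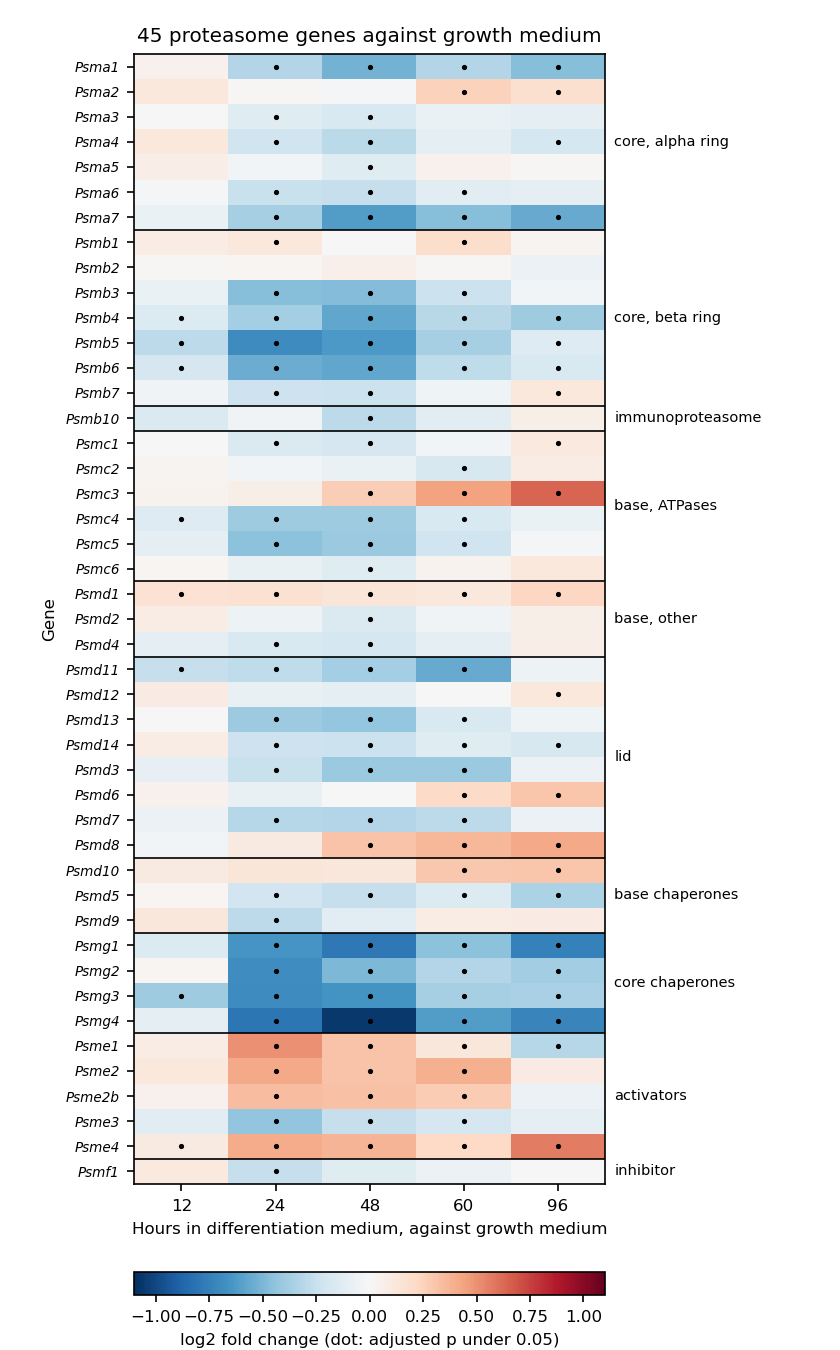
Log2 fold change against growth medium (colour) of 45 proteasome genes (rows, grouped by class) after 12, 24, 48, 60 and 96 h in differentiation medium (columns). A dot marks an edgeR adjusted p under 0.05; blue fills most of the core and all 4 core chaperones at 24 and 48 h, while the activators apart from Psme3 are red.

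Of the 7 alpha ring genes, 5 were lower at 24 h and 6 at 48 h, which is 71.4% and 85.7% against 30.6% and 32.8% of all genes. With TMM scaling the mean level of each of the 7 was lowest at 48 h. Their smallest rise from 48 to 60 h was 0.096. Total-count scaling shifted the median of all genes by -0.10 in that step, so the low at 48 h was not secure for each gene. Psma7 fell and stayed low. It read 189, 194 and 177 CPM in GM, 186, 173 and 173 at 12 h, 146, 149.7 and 139 at 24 h, 117, 125 and 124 at 48 h, 131, 137 and 137 at 60 h, and 126, 131 and 125 at 96 h. All libraries from 24 h on were below all GM libraries, and the change was -0.61 ± 0.05 (adjusted p = 2.3e-10) at 48 h and -0.55 ± 0.05 (adjusted p = 8.9e-10) at 96 h. Psma1 was alike, with 100.5 ± 3.4 CPM in GM and 72.6 ± 2.6 CPM at 96 h, -0.47 ± 0.05 (adjusted p = 1.1e-07). Psma2 went the other way. It read 119, 123 and 118 CPM in GM, 127, 131 and 131 at 12 h, 122, 129.8 and 112 at 24 h, 113, 119.9 and 123 at 48 h, 144, 138 and 146 at 60 h, and 136, 137 and 132 at 96 h. Its 60 and 96 h libraries all exceeded GM, by 0.25 ± 0.05 (adjusted p = 0.00012) and 0.17 ± 0.05 (adjusted p = 0.0033), and the second of these was lost under total-count scaling (adjusted p = 0.07). Psma3, Psma4, Psma5 and Psma6 changed by -0.20 to 0.01 at 96 h, of which the fall of Psma4 passed the test.

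The constitutive cutting subunits fell to different extents. Psmb5, which carries the chymotrypsin-like activity (chr14:54614120-54617995), read 60.4, 61.5 and 54.8 CPM in GM, 50.1, 49.7 and 44.7 at 12 h, 36.7, 35.04 and 37.8 at 24 h, 37.3, 37.4 and 39.4 at 48 h, 44.8, 45.04 and 47.6 at 60 h, and 50.1, 54.2 and 55.7 at 96 h. No library from 12 to 60 h reached the GM range, and at 96 h the groups overlapped. The change was -0.29 ± 0.06 (adjusted p = 0.00034) at 12 h, -0.69 ± 0.06 (adjusted p = 8.2e-10) at 24 h and -0.14 ± 0.06 (adjusted p = 0.026) at 96 h, and the last was lost without replicate 1 or 2 of GM or replicate 1 of 96 h (highest adjusted p = 0.09). Psmb6, with the caspase-like activity (chr11:70525324-70527858), read 158, 150.2 and 151 CPM in GM, 142, 138 and 123 at 12 h, 108, 107 and 99.4 at 24 h, 98.4, 105 and 106 at 48 h, 124, 119.5 and 134 at 60 h, and 131, 129.7 and 148 at 96 h. It was below GM in every DM library, by -0.57 ± 0.06 (adjusted p = 3.5e-08) at 48 h and -0.17 ± 0.06 (adjusted p = 0.017) at 96 h, the latter at an adjusted p of 0.05 without replicate 2 of 96 h.

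Psmb7, with the trypsin-like activity, moved least of the 3. It read 158, 167 and 149 CPM in GM, 148, 155 and 159 at 12 h, 135, 143 and 127 at 24 h, 129, 135 and 139 at 48 h, 154, 150.1 and 154 at 60 h, and 174, 175 and 166 at 96 h. Its dip at 48 h was -0.24 ± 0.05 (adjusted p = 0.00028), and at 96 h the groups overlapped: the rise of 0.12 ± 0.05 (adjusted p = 0.042) was lost in 17 of 27 alternatives. Of the other beta ring genes, Psmb4 fell most by 96 h. It read 216, 229.6 and 212 CPM in GM, 204, 207 and 181 at 12 h, 169.8, 181 and 156 at 24 h, 141, 149 and 153 at 48 h, 175, 176 and 181 at 60 h, and 162, 170.5 and 168 at 96 h, which is -0.57 ± 0.06 (adjusted p = 1.3e-08) at 48 h and -0.39 ± 0.06 (adjusted p = 2e-06) at 96 h with no overlap with GM. Psmb1 did not share this fall, and its mean was lowest in GM. Its values were 138, 139 and 138 CPM in GM, 141, 148 and 151 at 12 h, 153, 160.5 and 138 at 24 h, 133, 142 and 140.4 at 48 h, 154, 155 and 165 at 60 h, and 142, 139.8 and 143 at 96 h, and it was higher at 60 h by 0.19 ± 0.05 (adjusted p = 0.0016), a call lost under total-count scaling (adjusted p = 0.084). Psmb3 returned from -0.48 ± 0.05 (adjusted p = 9.8e-08) at 48 h to -0.03 ± 0.05 (adjusted p = 0.59) at 96 h, and Psmb2 was called at no time, with changes of -0.07 to 0.06.

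**Figure D3:**
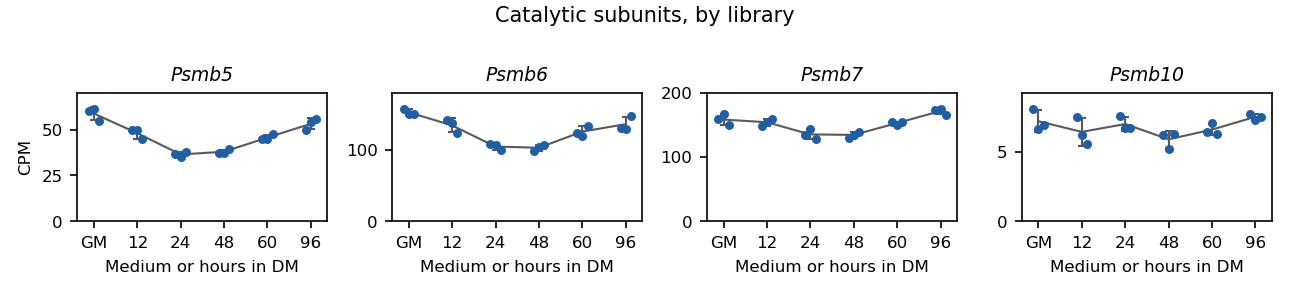
CPM (y axis, from 0) of the constitutive cutting subunits Psmb5, Psmb6 and Psmb7 and of the immunoproteasome subunit Psmb10 in growth medium and by hours in differentiation medium (x axis). Points are libraries, lines and bars mean ± SD (n = 3); Psmb5 drops from 54.8 to 61.5 CPM in growth medium to 35.0 to 37.8 at 24 h, while Psmb10 stays between 5.19 and 8.08.

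Of the immunoproteasome, 1 gene was expressed enough to test. Psmb10, which takes the place of Psmb7, read 8.08, 6.60 and 6.88 CPM in GM, 7.51, 6.17 and 5.58 at 12 h, 7.58, 6.71 and 6.67 at 24 h, 6.19, 5.19 and 6.27 at 48 h, 6.44, 7.03 and 6.28 at 60 h, and 7.70, 7.29 and 7.53 at 96 h. Its libraries overlapped between GM and each time but 48 h, where it was lower by -0.28 ± 0.11 (adjusted p = 0.035), a call lost in 5 of 27 alternatives (upper-quartile scaling, DESeq2, and without replicate 1 or 3 of GM or replicate 2 of 48 h; highest adjusted p = 0.19). Psmb8, which takes the place of Psmb5, had 52 counts over all 18 libraries. Its counts were 4, 7 and 8 in GM, 4, 1 and 2 at 12 h, 6, 4 and 3 at 24 h, 1, 2 and 0 at 48 h, 3, 2 and 0 at 60 h, and 3, 0 and 2 at 96 h. Psmb9, which takes the place of Psmb6, had 41 counts, from 0 to 6 per library, and none in the 3 libraries at 96 h. At the depth of that group a count of 0 allows up to 0.0324 CPM, for counting error only. The testis subunit Psma8 and the thymus subunit Psmb11 had no count in any library.

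Each immune subunit was set against the constitutive one it replaces by the log2 ratio of their counts within a library (0.5 added to each). From GM to the 15 DM libraries the mean ratio of Psmb8 to Psmb5 went from -8.06 to -9.31, a difference of -1.26 (exact two-sided permutation test, p = 0.0613, adjusted over 3 ratios 0.184). That of Psmb9 to Psmb6 differed by -0.48 (exact permutation p = 0.605, adjusted 0.85), and that of Psmb10 to Psmb7 by -0.02 (exact permutation p = 0.85, adjusted 0.85). None of the 3 passed the test, the first shrank to -0.27 and the second turned to 0.080 with 5 added in place of 0.5, and for Psmb8 and Psmb9 the ratios rest on 0 to 8 counts per library. The smallest p the design allows is 0.00245. The test pools the DM times, which were not alike. The mean ratio of Psmb8 to Psmb5 was -9.42 at 12 h, -9.74 at 48 h, -9.55 at 60 h and -9.91 at 96 h. At 24 h it was -7.95, above the -8.06 of GM.

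In the base of the regulatory particle the ATPase genes split. Psmc3 rose from 48 h on. It read 327, 334 and 313 CPM in GM, 347, 337 and 316 at 12 h, 346, 351 and 319.6 at 24 h, 380.3, 402 and 395 at 48 h, 432, 435 and 454 at 60 h, and 486, 516 and 517 at 96 h. Each library from 48 h on was above every GM library, by 0.27 ± 0.05 (adjusted p = 3.1e-05) at 48 h and 0.64 ± 0.05 (adjusted p = 7e-11) at 96 h, the largest rise of the 45 genes against GM. Psmc5 dipped and returned. It read 113, 119 and 109 CPM in GM, 106, 105 and 104 at 12 h, 77.9, 84.8 and 85.6 at 24 h, 83.4, 85.2 and 87.5 at 48 h, 96.3, 95.2 and 101 at 60 h, and 107, 114 and 114 at 96 h, which is -0.45 ± 0.05 (adjusted p = 2e-08) at 24 h and -0.02 ± 0.05 (adjusted p = 0.7) at 96 h. Psmc4 followed the same course, with -0.39 ± 0.05 (adjusted p = 3.5e-07) at 24 h and -0.07 ± 0.05 (adjusted p = 0.19) at 96 h. Psmc1, Psmc2 and Psmc6 changed by -0.19 to 0.12 against GM at all times.

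Psmd1, the large scaffold of the base, was higher than in GM at every time. Its values were 193, 195 and 202 CPM in GM, 211, 222 and 225 at 12 h, 215, 223 and 224 at 24 h, 217, 216 and 214 at 48 h, 209, 216 and 216 at 60 h, and 230.4, 238 and 223 at 96 h. No DM library overlapped GM, with 0.16 ± 0.04 (adjusted p = 0.0038) at 12 h and 0.23 ± 0.04 (adjusted p = 2.5e-05) at 96 h; the call at 60 h was lost in 11 of 27 alternatives. The ubiquitin receptors Psmd2 and Psmd4 fell by 48 h, by -0.16 ± 0.04 and -0.19 ± 0.04, and at 96 h neither was called. Counted over base and lid, 11 of 17 genes were lower and 3 higher at 48 h, against 32.8% and 32.5% of all genes. At 96 h 6 were higher, a share of 35.3% near the 34.8% of all genes, and 1 was lower, against 34.1%, with a median of 0.07; under total-count scaling 4 were higher and 5 lower at 96 h and the median was 0.00.

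Of the 8 lid genes, 5 were lower at 24 h and at 48 h (62.5%, against 30.6% and 32.8% of all genes), while Psmd8 rose from 48 h and Psmd6 from 60 h. Psmd8, a structural lid subunit, read 182, 180.3 and 181 CPM in GM, 186, 183 and 163 at 12 h, 196, 199.9 and 187 at 24 h, 224, 229.9 and 223 at 48 h, 226, 233 and 239 at 60 h, and 234, 234 and 257 at 96 h. From 24 h every library was above GM, and the change passed the test from 48 h, at 0.32 ± 0.05 (adjusted p = 9.2e-06), to 96 h, at 0.42 ± 0.05 (adjusted p = 1.6e-07). Psmd6 rose by 0.30 ± 0.04 (adjusted p = 3.3e-06) at 96 h. Psmd11, whose phosphorylation is known to raise proteasome activity, fell until 60 h. It read 58.2, 56.2 and 57.004 CPM in GM, 44.4, 47.2 and 51.9 at 12 h, 46.005, 44.2 and 51.1 at 24 h, 44.5, 43.98 and 43.5 at 48 h, 35.2, 41.3 and 39.9 at 60 h, and 52.3, 55.4 and 56.7 at 96 h. The fall was -0.56 ± 0.06 (adjusted p = 1.3e-07) at 60 h, and the step from 60 to 96 h brought it back by 0.50 ± 0.06 (adjusted p = 1.5e-06). Psmd3 dipped likewise, with -0.41 ± 0.05 (adjusted p = 4.9e-07) at 60 h and -0.06 ± 0.05 (adjusted p = 0.28) at 96 h. The lid gene Shfm1 is given with the partners below. Psmd14, the deubiquitinase, was the 1 of the 8 genes here still lower at 96 h. Its values were 109, 116 and 109 CPM in GM, 117, 114 and 123 at 12 h, 93.1, 98.4 and 93.1 at 24 h, 92.2, 96.8 and 95.4 at 48 h, 101, 99.4 and 104 at 60 h, and 99.7, 101 and 95.8 at 96 h, a change of -0.18 ± 0.04 (adjusted p = 0.00097) at 96 h with no overlap with GM. Psmd7 and Psmd13 were lower at 24, 48 and 60 h and were not called at 96 h, and the rise of Psmd12 at 96 h, 0.11 ± 0.05, was lost in 17 of 27 alternatives.

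As a class, the 4 Psmg chaperones that build the core fell most. Gene by gene this did not always hold: at 96 h Psma7 fell more than Psmg2 and Psmg3. Pomp, which matures the core and is given with the partners below, rose. Psmg1 and Psmg2, and Psmg3 and Psmg4, form pairs that guide the assembly of the alpha ring. All 4 were lower at 24, 48, 60 and 96 h, against 30.6 to 34.1% of all genes. Psmg4 (chr13:34162964-34178172) read 15.2, 18.6 and 15.6 CPM in GM, 15.6, 16.4 and 13.8 at 12 h, 10.3, 9.18 and 9.01 at 24 h, 7.46, 8.23 and 7.97 at 48 h, 10.8, 11.996 and 9.56 at 60 h, and 8.79, 10.1 and 11.04 at 96 h. All libraries from 24 h lay below all GM libraries, with -1.06 ± 0.10 (adjusted p = 1.2e-08) at 48 h and -0.72 ± 0.10 (adjusted p = 1.7e-06) at 96 h. Psmg1 read 24.02, 24.8 and 22.3 CPM in GM, 20.5, 21.3 and 22.4 at 12 h, 14.99, 15.4 and 15.02 at 24 h, 13.4, 13.2 and 14.6 at 48 h, 18.1, 16.2 and 17.6 at 60 h, and 14.2, 14.5 and 13.8 at 96 h. It fell by 24 h, rose from 48 to 60 h by 0.33 ± 0.06 (adjusted p = 0.00071) and fell again from 60 to 96 h by -0.29 ± 0.06 (adjusted p = 0.00085), to -0.74 ± 0.06 (adjusted p = 5.9e-10) against GM. Psmg2 changed by -0.68 ± 0.06 (adjusted p = 3.1e-09) at 24 h and -0.38 ± 0.06 (adjusted p = 6.9e-06) at 96 h. Psmg3 changed by -0.69 ± 0.11 (adjusted p = 2e-05) at 24 h and -0.35 ± 0.11 (adjusted p = 0.0081) at 96 h.

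**Figure D4:**
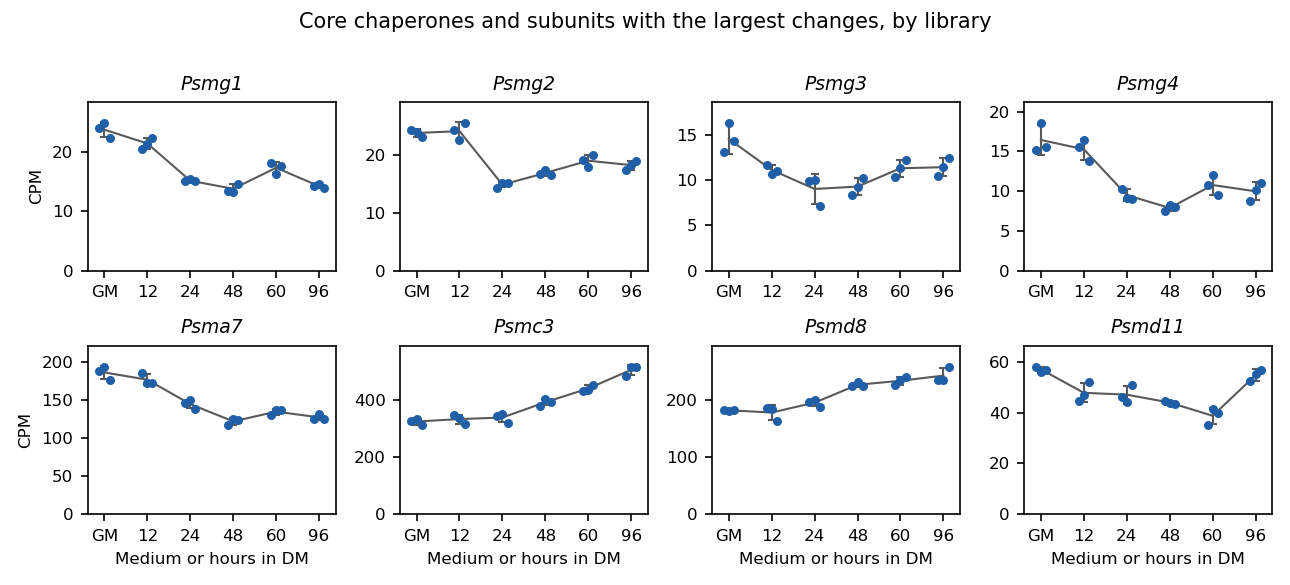
CPM (y axis, from 0) of the 4 core chaperones and of Psma7, Psmc3, Psmd8 and Psmd11 in growth medium and by hours in differentiation medium (x axis). Points are libraries, lines and bars mean ± SD (n = 3); Psmg4 falls from 15.2 to 18.6 CPM to 7.46 to 8.23 at 48 h, and Psmc3 climbs from 313 to 334 CPM to 486 to 517 at 96 h.

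The chaperones of the base did not share that course. Psmd10, also known as gankyrin, read 27.1, 27.4 and 27.2 CPM in GM, 29.1, 27.97 and 30.6 at 12 h, 29.8, 31.4 and 28.1 at 24 h, 26.8, 29.7 and 32.6 at 48 h, 33.04, 33.5 and 33.7 at 60 h, and 34.8, 35.5 and 30.4 at 96 h. It was higher at 60 h, by 0.30 ± 0.07 (adjusted p = 0.00059), and at 96 h, by 0.30 ± 0.07 (adjusted p = 0.00043). Psmd5 went down. Its values were 71.02, 74.2 and 77.1 CPM in GM, 73.1, 78.5 and 74.7 at 12 h, 62.4, 65.6 and 63.8 at 24 h, 61.9, 63.3 and 61.5 at 48 h, 66.95, 65.9 and 67.8 at 60 h, and 56.2, 58.5 and 59.6 at 96 h, and at 96 h the change was -0.35 ± 0.04 (adjusted p = 1.9e-07) with no overlap with GM. Psmd9 was lower at 24 h, at -0.29 ± 0.06 (adjusted p = 0.0003), and at no other time.

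The activators rose while the core fell. Of the 5 genes 4 were higher at 24 h and at 48 h, against 30.2% and 32.5% of all genes, and Psme3 was lower. Psme1, the alpha subunit of the interferon-inducible PA28, read 26.2, 24.6 and 26.9 CPM in GM, 26.6, 27.6 and 27.9 at 12 h, 38.2, 36.7 and 35.05 at 24 h, 32.3, 31.95 and 32.4 at 48 h, 27.1, 28.2 and 29.2 at 60 h, and 19.8, 21.3 and 21.2 at 96 h. It peaked at 24 h, 0.50 ± 0.05 (adjusted p = 1.8e-08), and ended below GM, -0.32 ± 0.05 (adjusted p = 1.5e-05), with all 96 h libraries under all GM libraries; the call at 60 h was lost in 23 of 27 alternatives. Psme2, the beta subunit of PA28, read 39.8, 39.8 and 44.2 CPM in GM, 44.2, 44.6 and 45.8 at 12 h, 58.1, 58.4 and 48.5 at 24 h, 48.2, 51.5 and 53.99 at 48 h, 51.5, 55.4 and 55.9 at 60 h, and 44.1, 41.9 and 45.7 at 96 h. It was up by 0.42 ± 0.07 (adjusted p = 1.1e-05) at 24 h and 0.40 ± 0.07 (adjusted p = 1.9e-05) at 60 h, and at 96 h by 0.09 ± 0.07 (adjusted p = 0.24), which did not pass.

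Psme2b, a near-identical copy of Psme2, had low counts that may in part be reads of Psme2. It read 3.78, 4.03 and 4.02 CPM in GM, 4.01, 4.11 and 4.10 at 12 h, 4.87, 5.07 and 5.08 at 24 h, 4.80, 5.30 and 4.71 at 48 h, 4.28, 4.81 and 5.22 at 60 h, and 4.15, 3.26 and 3.90 at 96 h, and its changes of 0.34 ± 0.11 (adjusted p = 0.009) at 24 h and 0.28 ± 0.11 (adjusted p = 0.032) at 60 h are uncertain, the latter lost in 20 of 27 alternatives. Psme3, the nuclear PA28 gamma, went the other way from its relatives. Its values were 55.5, 55.9 and 54.2 CPM in GM, 48.2, 50.3 and 53.3 at 12 h, 43.9, 42.6 and 36.3 at 24 h, 46.2, 45.98 and 46.9 at 48 h, 47.05, 49.2 and 49.6 at 60 h, and 54.01, 51.6 and 49.1 at 96 h, a fall of -0.43 ± 0.06 (adjusted p = 1.6e-06) at 24 h that had narrowed to -0.10 ± 0.06 (adjusted p = 0.14) at 96 h.

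Psme4 encodes PA200, a nuclear activator of the core (chr11:30771775-30881150). It read 138, 144 and 143 CPM in GM, 148, 152 and 154 at 12 h, 186, 194 and 184 at 24 h, 179.7, 186 and 184 at 48 h, 165, 161 and 167 at 60 h, and 209, 211 and 207 at 96 h. All DM libraries were above all GM libraries, and the levels had a first peak at 24 h, 0.41 ± 0.04 (adjusted p = 4.3e-09), dipped from 48 to 60 h by -0.15 ± 0.04 (adjusted p = 0.0041), and were highest at 96 h, 0.56 ± 0.04 (adjusted p = 1.2e-11). The inhibitor Psmf1, known as PI31, read 20.9, 19.9 and 21.5 CPM in GM, 22.8, 22.7 and 21.6 at 12 h, 17.3, 16.5 and 18.4 at 24 h, 18.2, 19.2 and 19.6 at 48 h, 18.04, 20.3 and 21.2 at 60 h, and 21.3, 20.3 and 21.2 at 96 h. It was lower at 24 h, by -0.26 ± 0.06 (adjusted p = 0.0015), and was not called at other times against GM.

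**Figure D5:**
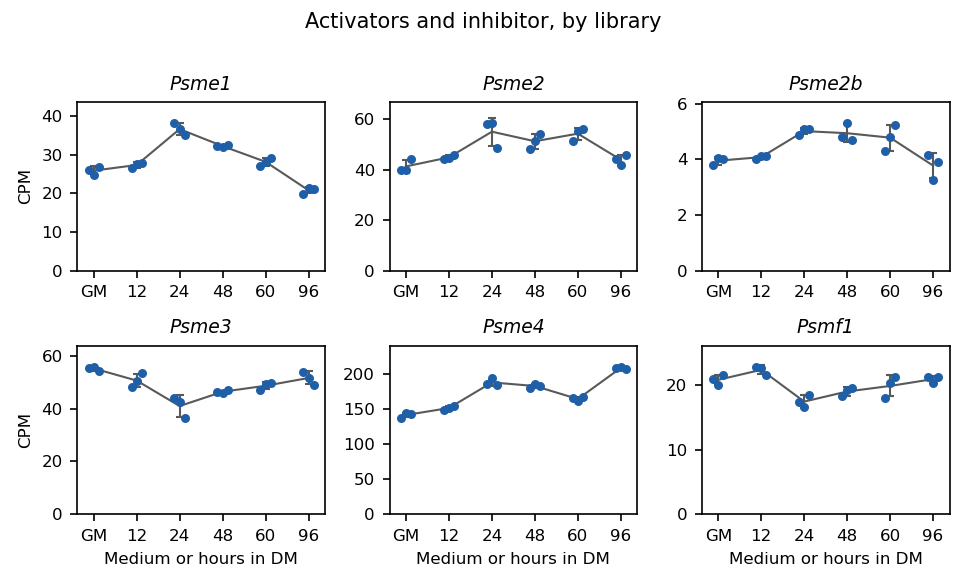
CPM (y axis, from 0) of the activator genes Psme1, Psme2, Psme2b, Psme3 and Psme4 and of the inhibitor Psmf1 in growth medium and by hours in differentiation medium (x axis). Points are libraries, lines and bars mean ± SD (n = 3); Psme1 peaks at 35.0 to 38.2 CPM at 24 h and ends at 19.8 to 21.3, and Psme4 ends highest, at 207 to 211.

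Psmc3ip, the match by symbol, fell far more than any proteasome gene. It read 12.3, 12.2 and 11.8 CPM in GM, 11.1, 10.9 and 12.5 at 12 h, 3.24, 3.85 and 3.76 at 24 h, 3.46, 4.29 and 3.84 at 48 h, 6.28, 6.11 and 7.66 at 60 h, and 3.55, 3.43 and 2.88 at 96 h, a change of -1.88 ± 0.11 (adjusted p = 1.6e-12) at 96 h. The counts of members lower at 24, 48, 60 and 96 h above each include it, as 1 of 28, 30, 22 and 14.

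Nearly all start sites were open in both conditions. Within 250 bases of a start, 38 of 39 matched genes (97.4%) had an ATAC-seq peak in GM and 38 at 60 h, against 93.7% and 94.1% of 10468 genes tested. The gene without a peak was Psme2b. Median fold enrichment over the local background, the authors' own value for a peak, was 7.09 in GM and 7.17 at 60 h over these genes and 6.03 and 6.01 over all. There is 1 peak list per condition, so no test was possible and folds are read within a list only. Psmc4 had the highest peak in GM, with a fold of 11.8, and Psma2 the highest at 60 h, with 9.47. Psmg4 had a fold of 8.12 in GM and 8.25 at 60 h, Psmb5 5.14 and 5.81, and Psme4 5.55 and 5.51. Psmb8 and Psmb9, with 52 and 41 counts in all, had peaks of 4.97 and 6.92 in GM and of 4.65 and 6.69 at 60 h over the stretches shown for them. The peak of Psmb9 also covers the Tap1 side of the pair, so it cannot be given to 1 of the 2 genes.

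Of 45 genes that work with the proteasome 18 were higher and 16 lower at 96 h, shares of 40% and 35.6% that lie near those of all genes, 34.8% and 34.1%. The counts of the partner lists that follow are at 96 h too, and stand against the same shares of all genes. Among regulators of proteasome transcription, Nfe2l1, the factor that induces subunit genes when the proteasome is impaired, stood at 257 ± 9.8 CPM in GM and was lower at 12 h, 207 ± 8.1 CPM. It then rose to 569 ± 6.5 CPM at 96 h, 1.15 ± 0.04 (adjusted p = 2.8e-16). In that list of 7, 4 were higher and 2 lower at 96 h, and the largest fall was that of the small Maf gene Maff, -0.42 ± 0.08 (adjusted p = 0.00013). Bach1, a repressor at the same DNA elements, was at 0.78 ± 0.05, and Mafk at 0.78 ± 0.07.

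Of 4 assembly and lid partners, 3 were higher and 1 lower at 96 h. Pomp, which matures the core, rose from 66.2 ± 1.8 CPM to 91.1 ± 1.5 CPM at 60 h and 83.5 ± 0.89 CPM at 96 h, 0.33 ± 0.05 (adjusted p = 4.8e-06). Shfm1, which encodes the small lid subunit Sem1, fell by 96 h, -0.40 ± 0.05 (adjusted p = 1.1e-06). Of 9 gating factors and deubiquitinases, 3 were higher and 3 lower, 33.3% each way and near the shares of all genes. Zfand5, which stimulates the proteasome and is known from muscle atrophy, rose from 77.6 ± 1.8 CPM to 156 ± 0.57 CPM at 24 h and 154 ± 9.4 CPM at 96 h, 0.99 ± 0.05 (adjusted p = 1.9e-14). Uchl5, a deubiquitinase of the base, fell, -0.83 ± 0.09 (adjusted p = 6.3e-08).

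Of 9 shuttles and segregase genes, 4 were higher at 96 h, against 34.8% of all genes, and 5 were not called. The largest rise was that of Ufd1l, a cofactor of the segregase Vcp, 0.36 ± 0.04 (adjusted p = 2.2e-07). Ubqln2, a shuttle, had dropped to -1.26 ± 0.15 (adjusted p = 2.4e-07) at 60 h. Of 6 genes of ubiquitin and its activation, 1 was higher and 4 lower. Rps27a, which encodes ubiquitin fused to a ribosomal protein, was lower, -0.56 ± 0.07 (adjusted p = 4.1e-07), while Ubb, a polyubiquitin gene, was higher, 0.21 ± 0.06 (adjusted p = 0.0038).

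Of 10 antigen presentation genes, 3 were higher and 6 lower at 96 h, against 34.8% and 34.1% of all genes. Tap1, whose start lies beside that of Psmb9, rose from 1.64 ± 0.23 CPM to 2.69 ± 0.42 CPM at 12 h, 0.70 ± 0.17 (adjusted p = 0.0031), and was below GM at 96 h, -0.48 ± 0.19 (adjusted p = 0.033). Nlrc5, a transactivator of class I genes, fell furthest, from 11.7 ± 0.35 CPM to 3.31 ± 0.28 CPM, -1.81 ± 0.09 (adjusted p = 1.4e-13). Irf1, an interferon regulatory factor, was higher at 96 h, 0.28 ± 0.05 (adjusted p = 5.7e-05).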

How the data were processed

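RNA was sequenced in 18 libraries, 3 in each of 6 groups, which were taken with their times from the sample titles; the protocol text gives last times from 96 to 111 h across samples. The authors deposited whole-number counts per gene, not scaled between libraries. Genome build mm10 and the tools MACS2 2.2.7, Bowtie2 2.2.6, RSEM 1.3.0, STAR, DESeq2, edgeR, SAMtools 1.9 and deepTools 2.5.2 are named per the submitters' processing notes. What each did, and how RSEM led to whole counts, was not given in the sources used here. From ATAC-seq the authors deposited 1 peak list per condition, whose peaks carry a fold over background, a ratio, and a −log10 q-value. Hi-C files, from 3 libraries in each of 2 conditions, were not used here.

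All 18 libraries were fitted with edgeR 4.0.16 in R 4.3.3 (TMM, filterByExpr by group, group as sole factor, 12 residual degrees of freedom, quasi-likelihood F test, Benjamini-Hochberg adjustment over 15303 genes, threshold 0.05). The steps were tested on simulated data. Log2 ratios of counts were compared by exact permutation (SciPy 1.17.1). Promoters and gene positions are RefSeq GRCm38.p6. Levels between genes were not compared, for want of lengths. Levels in every library are given for the catalytic, immune, activator and inhibitor genes and, in each other class, for called genes with the largest rise and fall at 60 and 96 h; in partner lists the largest rise and fall at 96 h, with Nfe2l1, Pomp and Tap1, are named. For the ubiquitin genes the largest fall is not reported here, and Rps27a was named instead after its value was seen. Psma1, Psmb2, Psmb3 and other genes outside this rule were named after their values were seen. The members and lists were chosen with earlier results of these data known. Depth was 24.2 to 36.4 M counts per library. Alternatives were RLE, upper-quartile and total-count scaling, no count filter, a CPM filter, a replicate block, DESeq2 1.42.0, fits on 6 libraries, protein-coding genes only (added after seeing the data), and leaving out each library. Markers of endothelial, epithelial and adipocyte cells were summed too, at 0.399 to 1.75, 3.76 to 16.6 and 0 to 0.085 CPM.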

Additional observations from a re-analysis of the deposited data

How the results depend on the processing

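None of 231 called fold changes of members over 9 contrasts changed sign in any alternative, and 67 of 183 that were not called did in at least 1. Of the 231 calls, 171 held under all alternatives, 60 were lost under at least 1 and 55 more were gained under at least 1; the cause was not tested. Total-count scaling gave 5 members higher at 12 h, 7 higher at 60 h, 6 higher and 23 lower at 96 h, 2 higher and 11 lower from 24 to 48 h, and 10 higher and 5 lower from 48 to 60 h. Members higher at 12 h numbered 4 with RLE scaling, 5 with no count filter, 6 with a CPM filter, 4 with DESeq2 and 1 with 6 libraries. Members lower from 24 to 48 h numbered 8 with upper-quartile scaling, 8 with a CPM filter and 8 with 6 libraries, and those higher numbered 3 with no count filter, 3 with DESeq2 and 2 with 6 libraries. With no count filter 3 were higher from 12 to 24 h. The ratio of Psmb8 to Psmb5 depended on the count added: its difference was -0.97 (exact permutation p = 0.0833) with 1 added and -0.27 (exact permutation p = 0.36) with 5. At 60 and 96 h alone it was -1.67 (exact permutation p = 0.0476, adjusted over 3 ratios 0.143). That of Psmb9 to Psmb6 was -0.29 with 1 added, 0.080 with 5, so that its sign turned, and -1.51 at 60 and 96 h alone (exact permutation p = 0.0952, adjusted 0.143).

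Same-numbered libraries of different groups correlated at -0.181 to 0.154 in their deviations, with 2 of 45 pairs over 0.1. Of the pairs with different numbers 14 of 90 were over 0.1. No pairing by number was visible, which does not show that the samples are unpaired. With the replicate block 1 member was higher at 12 h and no other count moved by over 1.5 times.

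Leaving out 1 library gave 1 to 9 members higher and 2 to 6 lower at 12 h, 5 to 9 and 26 to 28 at 24 h, 6 to 8 and 27 to 31 at 48 h, 8 to 11 and 20 to 25 at 60 h, 7 to 10 and 13 to 16 at 96 h. By step it gave 3 to 5 higher and 26 to 32 lower from 12 to 24 h (3 higher without 24 h replicate 2), 2 to 5 and 4 to 9 from 24 to 48 h, 11 to 22 and 2 to 3 from 48 to 60 h, 12 to 18 and 5 to 8 from 60 to 96 h. It gave 43 to 45 members that differed at any time. The ratio differences were -1.48 to -1.03 for Psmb8 to Psmb5 (exact permutation p from 0.0176 to 0.221, not adjusted, and lowest without 24 h replicate 1), -1.05 to -0.18 for Psmb9 to Psmb6, and -0.12 to 0.063 for Psmb10 to Psmb7, whose sign turned without GM replicate 1 or 12 h replicate 3. Libraries that moved a count by over 1.5 times were, at 12 h, all but GM replicates 1 and 3 and 12 h replicates 2 and 3 for members higher (1 to 9), and GM replicates 2 and 3, 12 h replicates 2 and 3 and 48 h replicate 2 for members lower (2 to 3). From 24 to 48 h they were GM replicate 2, each 24 h library but the second, each 48 h library and 96 h replicates 1 and 2 for members higher (2 to 3), and GM replicate 2, 12 h replicate 3, 24 h replicate 3 and each 96 h library for members lower (8 to 9). From 48 to 60 h 48 h replicate 1 was among them, and leaving it out left 11 members higher against 25 with all libraries. From 60 to 96 h 60 h replicate 3 and 96 h replicate 2 each left 5 lower. The depth of 24.2 to 36.4 M counts per library leaves Psmb8 and Psmb9 at 0 to 8 counts, which limits the precision of their ratios.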
